A study of Mus musculus with 2 samples.

Results

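Notch receptors, ligands and targets were examined in total RNA of the mouse neural tube at embryonic day 14.5. The set held 10 genes of the 43346 gene rows in each table, chosen by name, and each symbol matched exactly 1 row. They are the receptor genes Notch1, Notch2 and Notch3, the ligand genes Dll1, Dll3, Jag1 and Jag2, the receptor-modifying gene Lfng and the target genes Hes1 and Hes5. Both libraries belong to 1 group of B6NCrl mouse embryos, and the labels name no treatment or engineered allele. Replicate 1 is labelled as the tube of pup 1 from pregnant mouse 1 and replicate 2 as that of pup 1 from pregnant mouse 2, although the sex field gives pooled males and females. Each library was built from 10 ng of RNA with spike-in RNA added. A whole tube mixes progenitors, neurons, glia and vessels, so fewer cells of a type and less RNA per cell cannot be told apart in any value given here.

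Notch receptors are single-pass membrane proteins that are activated by ligands on a neighbouring cell. Ligand binding allows proteases to release the intracellular part of the receptor, which joins the DNA-binding protein Rbpj in the nucleus and switches on genes of the Hes and Hey families. In the embryonic neural tube these repressors hold progenitors undifferentiated, while neighbouring cells that express the ligand leave to become neurons. The same receptors and ligands also act in blood vessels, where Notch4 and Dll4 are known from endothelium and Notch3 from pericytes and smooth muscle.

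Gene rows summed to 32255363 expected counts in replicate 1 and 25428747 in replicate 2, and the members drew between 174 and 2734 counts in a library. Levels are deposited TPM, a transcript abundance scaled for length and depth, which allows genes to be compared. A single group leaves no contrast between conditions, and with 2 libraries an exact two-sided sign-flip test cannot go below 0.5, so no p-value is given. Neural markers were abundant in both libraries. The neuron marker list summed to 4921 TPM in replicate 1 and 4791 TPM in replicate 2, and all 8 of its genes reached 1 TPM in both. The neural progenitor list summed to 2410 and 2615 TPM, also with all 8 genes at that level. Most of that sum was Fabp7 (1771.63 and 1812.43 TPM), and the medians of the list were 35.39 and 38.79 TPM.

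All 10 members reached 1 TPM in both libraries, as did 13047 of 21474 protein-coding genes (60.8%). Their median level was 9.45 TPM in replicate 1 and 12.1 TPM in replicate 2, a mean of 10.78 ± 1.87 TPM (SD, n = 2). Protein-coding genes at or over 1 TPM in both had medians of 20.24 and 22.05 TPM, so the members' median lay below that of expressed genes. By mean TPM 9 of the 10 members were in the lower part of that distribution, under its median. Hes5 was highest, at percentile 68.5 of those genes by mean TPM, and Notch3 lowest, at percentile 20.7. By mean TPM the order was Hes5, Notch1, Dll3, Dll1, Lfng, Notch2, Hes1, Jag1, Jag2 and Notch3. Of the 9 neighbouring pairs in that order, 3 were apart, meaning that both libraries gave the same order and the gap on the log2(TPM + 1) scale exceeded the sum of the SDs. These were Hes5 above Notch1 (gap 1.04), Dll3 above Dll1 (0.34) and Jag2 above Notch3 (0.12). Each SD comes from a single difference between the libraries, so the rule takes no separate account of counting error. The deposited credibility bounds of TPM overlapped for Jag2 and Notch3 in both libraries, and for Dll3 and Dll1 in replicate 2. Both of these gaps are therefore not firm. The other 6 pairs were not apart by this rule, although Lfng lay above Notch2 in both libraries.

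**Figure D1:**
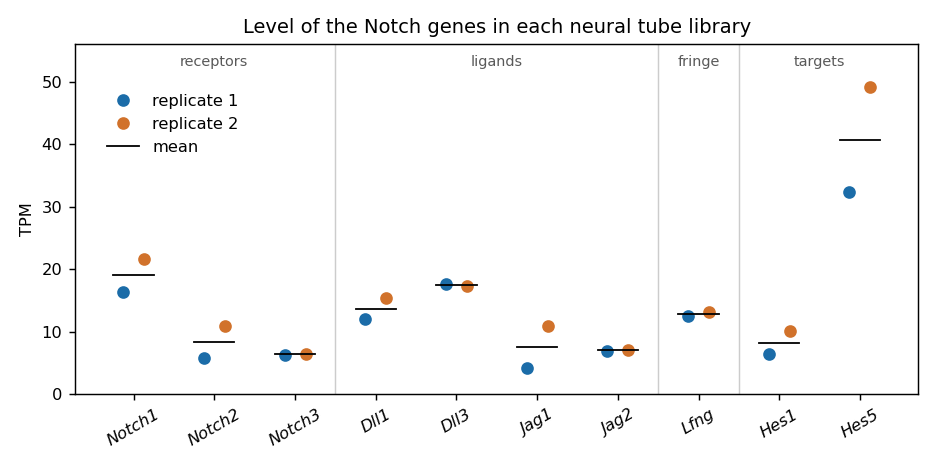
TPM of each member (vertical axis) in replicate 1 and replicate 2, with a line at the mean, grouped by role. Hes5 stands above the rest at 32.34 and 49.09 TPM, and Notch3, Dll3, Jag2 and Lfng have nearly the same level in both libraries.

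Among the receptors Notch1, the main receptor of neural progenitors, was the highest. It had 16.4 TPM in replicate 1 and 21.63 TPM in replicate 2 (19.02 ± 3.70, SD, n = 2; ENSMUSG00000026923.11, chromosome 2, 26457903 to 26516663, GRCm38). Notch2 had 5.80 TPM in replicate 1 and 10.98 TPM in replicate 2 (8.39 ± 3.66; chromosome 3, 98013527 to 98150361). Notch3, the pericyte and smooth muscle receptor that neural progenitors also express, had 6.29 and 6.40 TPM in replicates 1 and 2 (6.345 ± 0.0778; chromosome 17, 32120820 to 32166852). Notch1 was thus higher than either of the others in both libraries, and the order of Notch2 and Notch3 depended on the library. In log2(TPM + 1) units Notch1 exceeded Notch2 by 1.36 in replicate 1 and 0.92 in replicate 2, and Notch3 by 1.26 and 1.61. The difference between Notch2 and Notch3 was -0.10 in replicate 1 and 0.70 in replicate 2, so its sign was not shared.

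With Notch4 counted in, the receptor genes summed to 33.95 TPM in replicate 1 and 47.24 TPM in replicate 2. Notch1 made up 48.3% of this sum in replicate 1 and 45.8% in replicate 2. Notch2 made up 17.1% and 23.2%, Notch3 18.5% and 13.5%, and Notch4 16.1% and 17.4%. These are shares of transcript number and not of receptor protein.

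Among the ligand genes of the set, both Delta-like members lay above both Jagged members in each library. This does not hold for the whole family, since Dll4, outside the set, lay below both Jagged genes at 1.69 and 2.18 TPM. Dll3, which in the mouse acts inside the cell on Notch signalling and does not activate receptors on neighbours, had 17.57 TPM in replicate 1 and 17.35 TPM in replicate 2 (17.46 ± 0.156, SD, n = 2; chromosome 7, 28293553 to 28302238). Dll1, the ligand of newborn neurons and their precursors, had 11.98 and 15.33 TPM (13.66 ± 2.37; chromosome 17, 15367354 to 15376872). The log2(TPM + 1) difference of Dll1 minus Dll3 was -0.52 in replicate 1 and -0.17 in replicate 2. Dll3 was therefore higher in both libraries, by a gap that varied between them.

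Jag1, a ligand used both by neural progenitor domains and by vessels, differed more between the libraries than any other member. It had 4.26 TPM in replicate 1 and 10.89 TPM in replicate 2 (7.575 ± 4.69, SD, n = 2; chromosome 2, 137081456 to 137116644). Jag2, a ligand known from limb and craniofacial development, had 6.92 and 7.09 TPM (7.005 ± 0.12; chromosome 12, 112907819 to 112929776). Jag1 was below Jag2 in replicate 1 and above it in replicate 2, with log2(TPM + 1) differences of -0.59 and 0.56. Among the receptor-binding ligand genes Dll1, Dll3, Dll4, Jag1 and Jag2, which summed to 42.42 TPM in replicate 1 and 52.84 TPM in replicate 2, Dll3 held the largest share at 41.4% and 32.8%. Jag1 held 10.0% in replicate 1 and 20.6% in replicate 2, and Dll1 28.2% and 29.0%.

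Lfng encodes lunatic fringe, a Golgi enzyme that extends sugars on the receptor and changes which ligands it answers to. It had 12.55 TPM in replicate 1 and 13.22 TPM in replicate 2 (12.89 ± 0.474, SD, n = 2; chromosome 5, 140607320 to 140615545). It was not the most abundant fringe gene. Rfng (radical fringe) had 72.15 and 73.31 TPM, which made up 80.0% and 77.3% of the summed fringe TPM, against 13.9% in each library for Lfng. Mfng (manic fringe) had 5.48 TPM in replicate 1 and 8.33 TPM in replicate 2.

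The target genes encode basic helix-loop-helix repressors of proneural genes. Hes5 had 32.34 TPM in replicate 1 and 49.09 TPM in replicate 2 (40.72 ± 11.8, SD, n = 2; chromosome 4, 154960923 to 154962371). Hes1 had 6.39 and 10.13 TPM (8.26 ± 2.64; chromosome 16, 30064384 to 30067796). Both targets were lower in replicate 1, and the proportion between them hardly moved. Hes5 had 5.06 times the TPM of Hes1 in replicate 1 and 4.85 times in replicate 2. In log2(TPM + 1) units the difference was 2.17 in each library, with an SD of 0.0025. That SD comes from a single difference between the libraries. It understates the error, since Hes1 had only 174 and 204 counts.

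Promoter sequences from RefSeq (GRCm38.p6) were matched for 9 of the 10 members, all but Hes1, and made 10 promoters, since Dll1 has a pair. The 250 bases before each RefSeq start were searched on both strands for GTGGGAA, the core letters that Rbpj binds. Of these members Hes5 and Lfng held it, against 5.42% of all 32851 promoters in the table. Hes5 held it at 2 places, as 0.161% of promoters did. Both are shown because they are the members whose promoters carry the letters of the pathway's own DNA-binding protein. Capitals mark GTGGGAA or, where the match lies on the other strand, TTCCCAC. The sequences run 5′ to 3′ on the plus strand, chr4:154960673-154960922 for Hes5 and chr5:140607091-140607340 for Lfng.
Hes5: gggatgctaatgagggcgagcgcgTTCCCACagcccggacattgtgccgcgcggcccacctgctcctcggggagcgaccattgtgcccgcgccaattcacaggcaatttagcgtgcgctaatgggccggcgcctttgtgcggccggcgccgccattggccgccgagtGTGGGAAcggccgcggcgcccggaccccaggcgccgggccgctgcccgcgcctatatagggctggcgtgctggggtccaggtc
Lfng: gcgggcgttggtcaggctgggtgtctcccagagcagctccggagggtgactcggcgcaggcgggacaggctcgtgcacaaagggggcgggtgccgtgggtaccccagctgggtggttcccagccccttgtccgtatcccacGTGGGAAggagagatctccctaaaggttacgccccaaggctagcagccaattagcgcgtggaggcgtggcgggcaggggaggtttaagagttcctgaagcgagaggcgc
In Hes5 the matches lay at -226 to -220 and at -83 to -77 from the start, and in Lfng at -109 to -103. Positions count from the RefSeq start, which for Lfng lies within the GENCODE span given above. Among the other Hes and Hey genes with a promoter entry, Hes7 and Hey2 held it as well. CACGCG, letters that Hes repressors can bind, occurred upstream of Notch2, one start of Dll1, Jag1 and Lfng, against 7.62% of all promoters. CAGCTG, an E-box that proneural factors can bind, occurred upstream of the same start of Dll1, and of Dll3, Jag1 and Lfng, against 13%. In Lfng one CAGCTG lay at -146 to -141, apart from its GTGGGAA match. The shares over all promoters count single promoters, whereas the members are counted as genes. Those shares were not matched for base composition, and G and C made up 71.6% of the Hes5 stretch and 66.0% of the Lfng stretch. No enrichment was tested. A match of letters is a description of the sequence and does not show binding.

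The level of a gene sums over its annotated transcripts, and for 3 members a sizeable part of the TPM lay in transcripts that code for no protein. Notch2, Notch3, Jag2 and Lfng have 1 annotated transcript each. In Jag1, Hes1 and Hes5 the leading coding transcript held over 90% of the TPM in both libraries. Of the Notch1 TPM, the leading coding transcript held 85.38% in replicate 1 and 76.56% in replicate 2. A processed transcript of 406 bases held 4.91% and 18.61%, from 5.01 and 18.5 estimated counts. Because TPM divides by length, so few counts on so short a transcript weigh heavily, and the leading coding transcript held 97.4% and 98.1% of the Notch1 counts. In Dll1 the leading coding transcript held 70.82% and 75.51% of TPM, and a retained-intron transcript 20.73% and 16.99%. In Dll3 the leading coding transcript held 69.54% and 77.24%, and a retained-intron transcript 28.81% and 20.07%. These retained-intron transcripts are short as well, 751 bases in Dll1 and 665 bases in Dll3. They had 32.8 and 25.42 estimated counts in Dll1, and 58.05 and 29.5 in Dll3. By counts the leading coding transcript held 92.8% and 94.2% of Dll1, and 90.9% and 93.6% of Dll3.

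**Figure D2:**
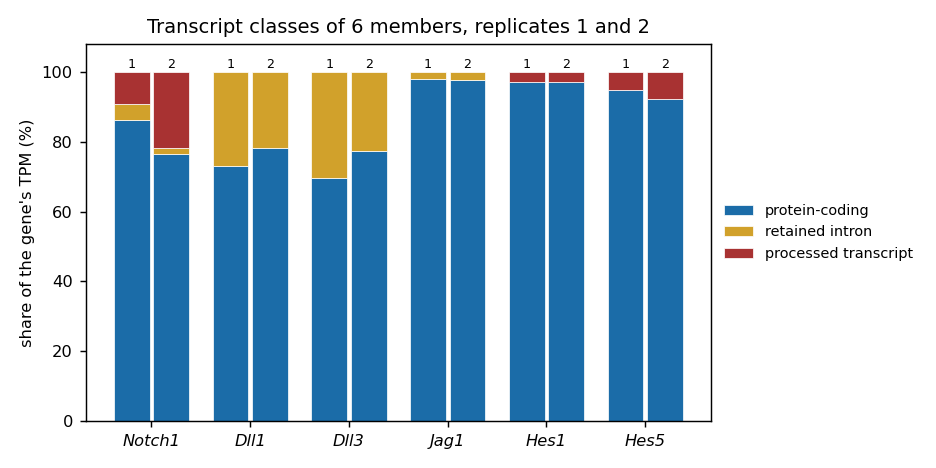
Share of each gene's TPM in protein-coding, retained-intron and processed transcripts (vertical axis, percent) for the 6 members with several annotated transcripts, replicate 1 left and replicate 2 right. Retained-intron transcripts of Dll1 and Dll3 and processed transcripts of Notch1 take the largest non-coding shares.

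Counting coding transcripts alone, Notch1 had 14.16 TPM in replicate 1 and 16.56 TPM in replicate 2, Dll3 12.21 and 13.4 TPM, and Dll1 8.74 and 11.97 TPM. Notch1 then lay above Dll3 in both libraries, whereas by total TPM it lay below Dll3 in replicate 1. Lfng, whose only transcript is coding (12.55 and 13.22 TPM), then lay above Dll1 in both libraries and above Dll3 in replicate 1. By total TPM Lfng lay above Dll1 in replicate 1 only and below Dll3 in both. The order of Dll3, Dll1 and Lfng thus depended on the transcripts counted. The Notch1 ratio of replicate 1 to replicate 2 was 0.758 by total TPM and 0.855 by coding TPM. The deposited credibility bounds of the Notch1 TPM were 16.86 to 22.91 in replicate 1 and 20.93 to 31.41 in replicate 2. They belong to the posterior mean TPM, 19.75 in replicate 1 and 26.07 in replicate 2, and the TPM of 16.4 in replicate 1 lies under its own lower bound. Several members also overlap other genes. On the opposite strand Hes5 shares 756 bases with Gm20421 (2.72 TPM in replicate 1 and 2.56 TPM in replicate 2), Dll1 1873 bases with A930024N18Rik (1.38 and 1.04 TPM) and Notch3 21024 bases of its span with Gm17276 (0.69 and 0.47 TPM). Notch1 shares 414 bases with Gm13568 (8.38 and 13.41 TPM) and 1488 bases with 0610009E02Rik (2.55 and 3.67 TPM). The strand setting of the counting is not given in the sources used here, so reads of such a pair cannot be told apart. On its own strand Notch2 shares 5121 bases of its span with Gm42819 and 3063 bases with Gm42820. Neither is among the genes measured, and whether reads from them were counted for Notch2 was not tested.

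Between the libraries, 2 of the 10 members differed by 1.5-fold or more, both lower in replicate 1. Across the 17623 genes whose mean count reached 10, 19.2% differed by that much in either direction and 10.8% were that much lower in replicate 1. Among genes whose mean count reached 100, as that of every member did, 10.1% differed by 1.5-fold or more in either direction. With 10 members, a count of 2 is not read as different from either share. Ratios below are of replicate 1 to replicate 2 on rounded expected counts with TMM-scaled library sizes, and square brackets hold exact 95% (Clopper-Pearson) intervals that cover counting error only. Jag1 had 468 counts in replicate 1 and 884 in replicate 2, a ratio of 0.418 [0.373 to 0.468]. Notch2 had 1224 and 1711 counts, a ratio of 0.565 [0.524 to 0.608]. Both intervals end below the 1.5-fold line. Just inside that line lay Hes1, with 174 and 204 counts and a ratio of 0.674 [0.547 to 0.829], whose interval crosses it. Hes5 followed, with 737 and 810 counts and a ratio of 0.719 [0.649 to 0.795], an interval that also crosses the line.

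The remaining members differed less. Dll1 had a ratio of 0.796 [0.712 to 0.889] and Notch1 one of 0.911 [0.861 to 0.963]. Notch3 (1.05 [0.955 to 1.16]), Jag2 (1.04 [0.918 to 1.19]), Lfng (1.01 [0.893 to 1.15]) and Dll3 (1.00 [0.895 to 1.13]) had intervals that span 1. The median log2 ratio of the members was -0.23, against 0.00 over all genes tested. Scaling by spike-in counts in place of TMM shifted every log2 ratio by -0.55. All 10 members then had ratios below 1, which turns the direction of Notch3, Jag2, Lfng and Dll3, and 6 members passed 1.5-fold, as did 46.7% of all genes. By deposited TPM 4 members passed, Hes1 (0.631) and Hes5 (0.659) in addition to Jag1 (0.391) and Notch2 (0.528), against 20.2% of all genes. On that scale Notch3 (0.983), Jag2 (0.976) and Lfng (0.949) had ratios just below 1, where TMM scaling put them just above. The median of protein-coding genes at or over 1 TPM in both libraries was also lower in replicate 1, at 20.24 against 22.05 TPM. A lower deposited TPM in replicate 1 is thus not particular to the members.

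**Figure D3:**
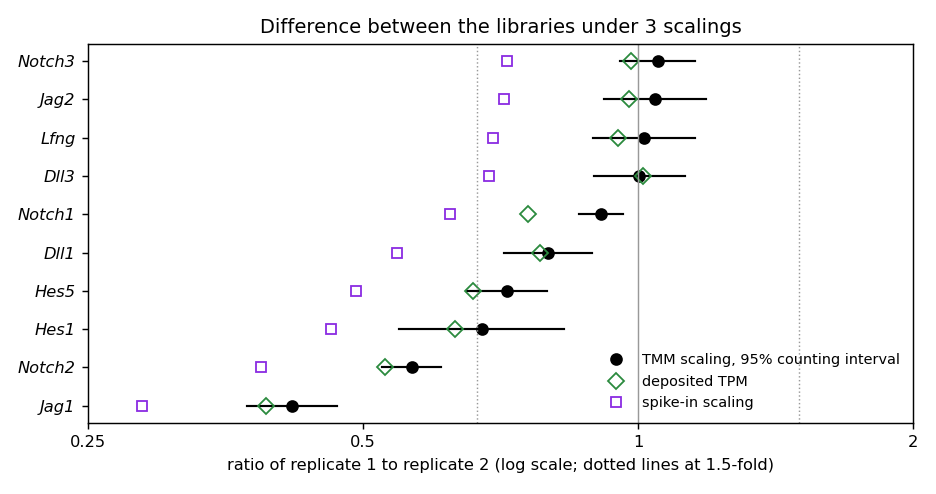
Ratio of replicate 1 to replicate 2 for each member (horizontal axis, log scale) with TMM scaling and its 95% counting interval, by deposited TPM and with spike-in scaling. Jag1 and Notch2 lie beyond the 1.5-fold line at the left under each of these 3 scalings, while Notch3, Jag2, Lfng and Dll3 sit at 1 except with spike-in scaling.

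Markers of vessels, meninges, sensory ganglia and Schwann cells mostly moved in the same direction as Jag1 and Notch2. Those of skeletal muscle, given below, did not. All 9 endothelial markers were at least 1.5-fold lower in replicate 1, and their summed level was 95.59 TPM in replicate 1 and 220.1 TPM in replicate 2. By mean TPM, which sets the highest and lowest gene of each marker list here, Cldn5 was the highest (35.73 and 90.02 TPM) and Tek the lowest (4.07 and 9.22 TPM). Of 7 pericyte and smooth muscle markers, 4 were that much lower, with sums of 37.87 and 63.68 TPM, led by Rgs5 (15.21 and 20.12 TPM), while Myh11 stayed near 0 (0.08 and 0.35 TPM). All 6 meninges and fibroblast markers were lower, with sums of 44.23 and 977.9 TPM, from Col3a1 (9.70 and 419.22 TPM) to Foxc1 (0.55 and 3.64 TPM). All 6 sensory ganglion markers were lower too, with sums of 14.52 and 182.7 TPM, and the lowest of them was Prdm12 (0.84 and 13.59 TPM). Of 6 Schwann cell markers 4 were lower, with sums of 1781 and 1842 TPM, nearly all of it Fabp7, which progenitors share, and the lowest was Egr2 (0.45 and 0.84 TPM). None of the markers on these 5 lists was at 0 in either library. The part of these tissues in the values of Jag1 and Notch2 was not tested.

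Neuron and neural progenitor markers differed less between the libraries. None of 8 neuron markers passed 1.5-fold, and their median log2 ratio was 0.17. They ran from Tubb3 (1291.63 TPM in replicate 1 and 1307.71 TPM in replicate 2) to Elavl3 (93.0 and 85.03 TPM). Of 8 progenitor markers 1 passed, and the median log2 ratio was -0.11. That gene, Nes, an intermediate filament of progenitors, had 8.43 and 13.23 TPM in replicates 1 and 2 and a ratio of 0.641 [0.584 to 0.704]. It is named because it passed, after its values were seen. The ratios of the other 7 ran from 0.671 (Sox2) to 1.045 (Fabp7). By mean TPM Fabp7 was the highest progenitor marker (1771.63 and 1812.43 TPM) and Pax6 the lowest (10.65 and 10.9 TPM). Oligodendrocyte precursor markers summed to 107.1 and 110.2 TPM, from Olig1 (49.37 and 40.31 TPM) to Cspg4 (3.07 and 3.44 TPM). Of these, 2 of 6 were at least 1.5-fold lower in replicate 1, Pdgfra (ratio 0.553) and Sox10 (0.551), which is also on the Schwann cell list. The remaining ratios ran from 0.956 (Cspg4) to 1.328 (Olig2), and the median log2 ratio of the list was 0.04. Pdgfra and Sox10 too are named because they passed, after their values were seen. Skeletal muscle, which lies outside the tube, ran the other way, with 4 of 5 markers at least 1.5-fold higher in replicate 1. Its markers summed to 39.71 and 20.73 TPM, from Acta1 (18.02 and 7.36 TPM) to Myog (0.64 and 0.62 TPM).

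**Figure D4:**
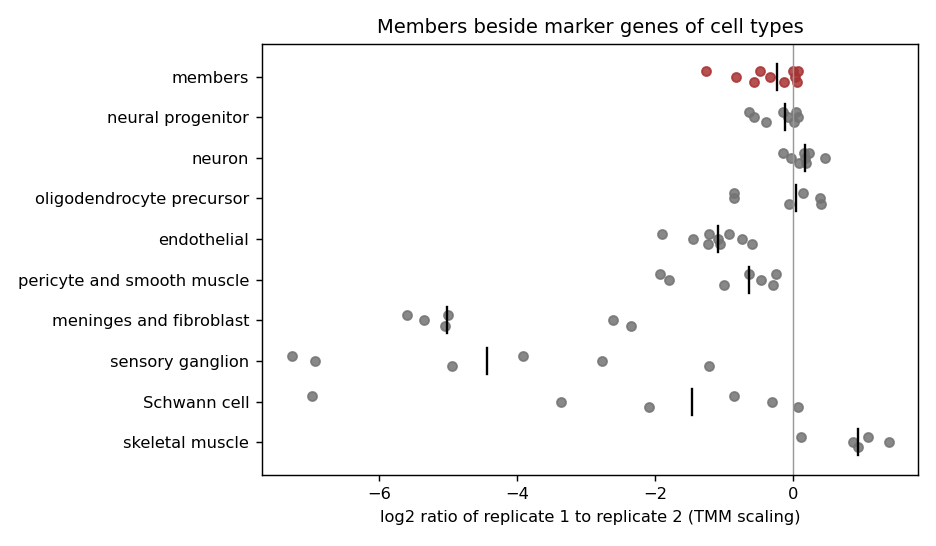
Log2 ratio of replicate 1 to replicate 2 (horizontal axis, TMM scaling) for the members and for the genes of 9 marker lists, with a line at each median. The members' median of -0.23 lies between those of the neural progenitor (-0.11) and endothelial (-1.08) lists, and the meninges and ganglion lists lie furthest to the left.

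Of 62 other genes of the pathway on 9 lists, 55 reached 1 TPM in both libraries. Of the 58 whose mean count reached 10, 6 were at least 1.5-fold lower in replicate 1 and 0 higher. That is 10.3% of those tested, against 19.2% of all genes in either direction and 10.8% lower in replicate 1. Among all genes whose mean count reached 100, as that of most of these 58 did, 10.1% passed 1.5-fold in either direction. The pathway share lay near that value. Notch4, the endothelial receptor, had 5.46 TPM in replicate 1 and 8.23 TPM in replicate 2 (ratio 0.729 [0.603 to 0.881]). Among ligands outside the set, Dner, a neuronal transmembrane protein with epidermal growth factor repeats, had 270.77 and 294.63 TPM, more than any other ligand gene measured. Dlk1, an imprinted Delta-like gene, had 37.93 and 45.15 TPM, and Dlk2 14.89 and 11.34 TPM. Dll4, the ligand of sprouting endothelium, had 1.69 and 2.18 TPM.

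All 10 receptor protease genes reached 1 TPM in both libraries and none passed 1.5-fold. Ncstn (91.16 and 104.28 TPM in replicates 1 and 2) and Psenen (91.16 and 85.91 TPM) encode parts of gamma-secretase, which makes the final cut. Adam10, the protease of the cut before it, had 38.47 and 56.95 TPM. All 9 genes of the nuclear complex were detected and none passed 1.5-fold. Snw1 was highest at 73.75 and 87.08 TPM. Rbpj itself had 26.77 and 38.17 TPM, with a ratio of 0.75 [0.713 to 0.79]. The acetyltransferase gene Ep300 had 22.46 and 19.69 TPM. All 4 ligand ubiquitin ligases were detected, Mib2 at 28.09 and 30.12 TPM, Mib1 at 20.44 and 27.57 TPM, Neurl1a at 9.29 and 8.38 TPM and Neurl1b at 1.46 and 1.35 TPM.

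All 8 intracellular regulators were detected and none passed 1.5-fold. The Deltex gene Dtx3 was highest at 183.29 and 183.14 TPM. Fbxw7, part of the ubiquitin ligase that removes the active receptor fragment, had 49.51 and 37.35 TPM, the ubiquitin ligase gene Itch 34.59 and 39.93 TPM, and Dtx1 39.31 and 35.13 TPM. Of 10 fringe and other glycosyltransferase genes, 9 were detected and 3 were at least 1.5-fold lower in replicate 1. After Rfng the highest were Poglut1, which adds glucose to the receptor (45.15 and 52.48 TPM), Poglut2 (19.87 and 24.46 TPM) and Xxylt1 (13.09 and 16.45 TPM). Those lower were Mfng (0.652 [0.532 to 0.798]), Poglut3 (0.547 [0.457 to 0.652]) and Gxylt2 (0.324 [0.199 to 0.504]), the last from 28 and 69 counts.

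**Figure D5:**
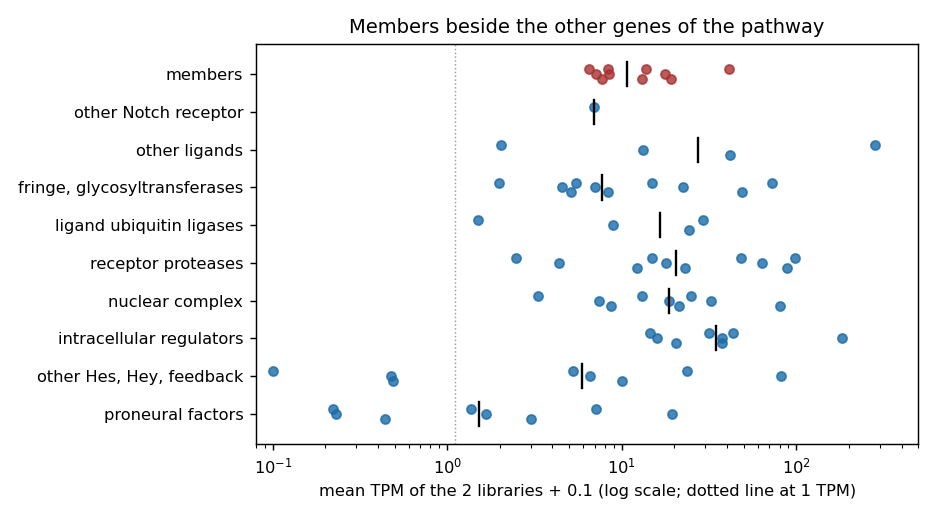
Mean TPM of the 2 libraries plus 0.1 (horizontal axis, log scale) for each member and each other pathway gene, by list, with a line at the median. The members lie between 6.345 TPM (Notch3) and 40.72 TPM (Hes5), and the genes to the left of 1 TPM are Hes2, Hes3, Hes7, Neurog1, Neurog3 and Atoh1.

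Of the 8 other Hes, Hey and feedback target genes, 5 reached 1 TPM in both libraries. Hes6, a Hes relative of differentiating neuronal precursors that opposes Hes1, had 79.2 TPM in replicate 1 and 82.86 TPM in replicate 2, above Hes5 in both. Hey1 had 21.6 and 25.26 TPM and the feedback inhibitor gene Nrarp 8.10 and 11.81 TPM. Heyl had 2.77 and 7.57 TPM, with a ratio of 0.383 [0.327 to 0.448]. Hey2, which is also a vascular gene, had 4.95 and 8.01 TPM and a ratio of 0.661 [0.555 to 0.785]. Hes3 (10 and 12 counts) and Hes7 (14 and 9 counts), a gene of the somite clock, stayed under 1 TPM, and Hes3 passed 1.5-fold with an interval that spans 1 (0.663 [0.255 to 1.66]). Hes2 had 0 counts, which allows up to 3 in a library.

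Of the 8 genes on the list of proneural factors, some of which switch on Dll1 and are repressed by Hes proteins, 5 reached 1 TPM in both libraries. Neurod1 had 18.71 TPM in replicate 1 and 19.71 TPM in replicate 2, Neurog2 2.64 and 3.17 TPM, and Neurod4 1.26 and 1.87 TPM. None of the 5 tested passed 1.5-fold. Neurog1 (4 and 3 counts), Neurog3 (3 and 12 counts) and Atoh1 (7 and 2 counts) stayed under 1 TPM in both libraries.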

How the data were processed

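The authors aligned reads to mm10 with GENCODE mouse release M4, per the text notes deposited with the tables, and quantified each library separately. The sources used here name no quantifier, version or strand setting. Expected counts, per the file headers, are deposited as estimates without normalisation. TPM and FPKM, as deposited, correct for depth and effective length, and TPM sums to the same total over all rows, 96 spike-ins included. Deposited percent columns give a transcript's share of its gene's TPM, and deposited score columns give credibility bounds of TPM. Spike-ins took 3.31% of counts in replicate 1 and 2.29% in replicate 2, and 26249 rows that name no gene took 3.6e-05% and 5.38e-05%. Both stayed out of library sizes.

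Symbols, types and 1-based coordinates came from GENCODE release M21 (GRCm38, the assembly of mm10), matched by identifier without version, for 42462 of 43346 gene rows. Through RefSeq synonyms 2 list genes, Poglut2 and Poglut3, were matched. The members, the 9 pathway lists and the 9 marker lists were chosen with earlier results of these data known. All members are named, and of each pathway list the 4 highest, those under 1 TPM and those past 1.5-fold, and of each marker list the highest and lowest. A few genes covered by it are left unreported here but stay in the counts and sums of their lists. Expected counts were rounded. Ratios used TMM factors computed by edgeR 4.0.16 under R 4.3.3, adding a prior count of 0.5, and DESeq2 1.42.0 size factors, spike-in scaling, library totals and deposited TPM as alternatives. The intervals and the floor (3 counts) hold counting error alone, and amplified reads are not independent molecules, so they are too narrow to stand for all error. The ratio step was tested on simulated data. NumPy 2.4.6, pandas 2.3.3 and matplotlib 3.10.9 (Python 3.11.15) did the rest.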

Additional observations from a re-analysis of the deposited data

How the results depend on the processing

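All 10 members stayed at or over 1 TPM with FPKM, posterior mean TPM, coding transcripts alone, a threshold of 0.5 TPM and in each library alone, and 9 did so at 5 TPM, the exception being Jag1 in replicate 1. The median level was 6.352 by FPKM, whose scale differs from that of TPM by construction. Notch1 exceeded Notch3 by 1.43 on the log2(TPM + 1) scale, by 1.73 with posterior mean TPM and by 1.15 with coding transcripts alone, which were chosen after seeing the data. Hes5 exceeded Hes1 by 2.17, by 2.29 with a pseudocount of 0.1, by 2.09 with FPKM, by 2.05 with posterior mean TPM and by 2.12 with coding transcripts alone. None of these changed sign. The 2 members past 1.5-fold were 6 with spike-in scaling, 4 by deposited TPM and 1 (Jag1) at 2-fold, and stayed 2 with DESeq2 size factors, library totals and a prior count of 2. The share of all genes past 1.5-fold was 10.1% at a mean count of at least 100, 35.4% with no filter and, in alternatives added after seeing the data, 46.7% with spike-in scaling and 20.2% by deposited TPM. No paired analysis was possible because there is 1 group. With 2 libraries, the spread between embryos is known from a single difference per gene, and the counting intervals do not include it.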
